A study of Mus musculus with 6 samples.

Results

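The miR-148/miR-152 family was examined in small RNA libraries from the inner medulla of the mouse kidney, the innermost zone, where collecting ducts concentrate the urine. The deposited table holds 6 entries of the family among 1081: mmu-miR-148a-3p, mmu-miR-148a-5p, mmu-miR-148b-3p, mmu-miR-148b-5p, mmu-miR-152-3p and mmu-miR-152-5p. They were chosen by name, from every row called miR-148a, miR-148b or miR-152, when the genotype differences in this same table were already known. Those differences are therefore given as a description, with standard errors but no test of their own. All 6 entries were above the mean of 5 normalized reads that was required for the fit, as were 461 entries in all.

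Libraries came from 1-month-old control mice and from mice labelled DicerAQP2Cre+, with 3 libraries each from separate mice per the series design. In the latter, Dicer1 is meant to be deleted in cells that express aquaporin-2, a water channel found in principal cells of the collecting duct. Which cells lost the enzyme, and how completely, was not measured here. That the other cells of the tissue keep it is presumed from the design. The labels give the comparison group only as control, and state neither its alleles nor strain or sex. In whole tissue, fewer principal cells and less of a miRNA per cell cannot be told apart. The table names its DicerAQP2Cre+ columns CK01 to CK03, and reading these as conditional knockout replicates 1 to 3 is an inference on which every direction rests.

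A miRNA gene is transcribed into a hairpin, whose loop is removed by Dicer to leave a duplex of a 5p and a 3p strand. Usually one strand is loaded into an Argonaute protein, where its seed, bases 2 to 8 counted from the 5′ end, selects the messenger RNAs to be repressed, and the other strand is mostly degraded. The miR-148/miR-152 family is best known for abundant miR-148a in hepatocytes, and for repression of the DNA methyltransferase Dnmt1 and of the LDL receptor. Members with the same seed can repress overlapping targets, so their summed level is of interest beside each single level.

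The 3p strands define the family, and their mature sequences are shown with the seed in capitals because the seed is what makes the entries a family. Sequences are from RefSeq (GRCm38.p6), where all 6 names matched.
miR-148a-3p: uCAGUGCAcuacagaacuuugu
miR-148b-3p: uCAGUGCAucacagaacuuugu
miR-152-3p: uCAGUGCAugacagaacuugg
These 3 were the only names with this seed among the 1679 mature names in the RefSeq table, and all 3 are in the deposited table. Counted from the 5′ end, miR-148b-3p differs from miR-148a-3p by C9U and U10C and is identical at 20 of 22 positions. miR-152-3p differs from miR-148a-3p by C9U, U10G and U20G and is identical at 18 of the 21 positions it has. Every difference thus lies outside the seed. Reads of these strands differ by 2 or 3 bases, and how the counting treated mismatches is not given in the sources used here.

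The 5p strands carry other seeds, and are shown in the same way to make that plain.
miR-148a-5p: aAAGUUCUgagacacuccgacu
miR-148b-5p: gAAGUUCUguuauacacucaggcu
miR-152-5p: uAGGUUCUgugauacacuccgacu
The miR-148a and miR-148b 5p strands share one seed, whose reverse complement stands at positions 13 to 19 of their own 3p strands. The reverse complement of the miR-152-5p seed was not found in miR-152-3p. The longest run common to miR-148a-5p and miR-152-5p is 11 bases at their 3′ ends, against 8 bases between either of them and miR-148b-5p.

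The hairpins show how both strands come from one precursor (arms in capitals, 5p first).
Mir148a: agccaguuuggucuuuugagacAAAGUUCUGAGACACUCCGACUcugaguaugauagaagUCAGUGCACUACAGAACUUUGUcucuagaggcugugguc
Mir148b: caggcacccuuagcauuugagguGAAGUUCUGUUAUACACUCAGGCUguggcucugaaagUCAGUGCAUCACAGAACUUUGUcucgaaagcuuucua
Mir152: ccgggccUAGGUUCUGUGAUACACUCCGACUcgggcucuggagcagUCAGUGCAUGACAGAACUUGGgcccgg
The hairpins are 99, 97 and 73 bases long, with 16, 13 and 15 bases between the arms.

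The 3 genes lie on separate chromosomes in neighbourhoods that resemble each other. The submitters' processing notes name the build mm9, whereas the annotation used here is GRCm38, so gene order is given without coordinates. Mir148b lies in an intron of Copz1 and Mir152 in an intron of Copz2, each on the strand of its host. Copz1 and Copz2 encode alternative zeta subunits of the COPI coat, which carries vesicles from the Golgi to the endoplasmic reticulum. Mir148a lies in no Copz gene, and overlaps only the RefSeq gene model Gm38821. This model is listed as protein-coding, and its exons and strand were not compared with those of Mir148a. Among the 20 nearest protein-coding genes, each locus has a heterochromatin protein gene (Cbx3, Cbx5 and Cbx1 beside Mir148a, Mir148b and Mir152) and a gene of the NF-E2 transcription factor family (Nfe2l3, Nfe2 and Nfe2l1). Mir148a and Mir148b also have Hnrnpa2b1 and Hnrnpa1 and genes of the HoxA and HoxC clusters near them, and Mir148a and Mir152 have Snx10 with Skap2 and Snx11 with Skap1.

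In control inner medulla the family was carried by miR-148a-3p, with miR-148b-3p next and miR-152-3p far below. Each level is the number of reads assigned to a mature strand, scaled by the library's size factor, and is called normalized reads here. The mature strands are 21 to 24 bases long, so no scaling by length was applied. In control replicates 1 to 3 miR-148a-3p stood at 3268, 3081 and 3441 normalized reads, which placed it at rank 64, 68 and 65 among the 1081 entries. miR-148b-3p stood at 1534, 1115 and 817, between rank 83 and rank 104. miR-152-3p stood at 210.0, 222 and 178. No 2 of these ranges overlap, so the order miR-148a, miR-148b, miR-152 held in each control library. miR-148b-3p was the most variable of them, with an SD of 31.2% of its mean in controls, against 5.52% for miR-148a-3p and 11.1% for miR-152-3p.

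miR-148a-3p, the main member, was lower in every DicerAQP2Cre+ library than in every control library. It stood at 1832, 1485 and 1569 normalized reads in DicerAQP2Cre+ replicates 1 to 3, at rank 80 to 82. The means were 3264 ± 180 in controls and 1629 ± 181 in DicerAQP2Cre+ samples (SD, n = 3 each), and the second was 49.9% of the first. The log2 fold change, computed here and below on log2(value + 1), was -1.01 ± 0.19 (SE). Between 758 and 4249 recovered reads lay behind each value. In the shallowest library the 95% exact Poisson interval, which covers counting error only, ran from 1382 to 1595 normalized reads, below the lowest control.

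miR-152-3p, the least abundant 3p strand, was lower by a smaller step, again with no overlap between the genotypes. Its values in DicerAQP2Cre+ replicates 1 to 3 were 141, 99.9 and 127 normalized reads. The means were 203 ± 22.6 and 123 ± 21.0 (SD, n = 3 each), a 1.66-fold lower level. The log2 fold change was -0.73 ± 0.24 (SE).

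miR-148b-3p overlapped between the genotypes. It stood at 1259, 909 and 606 normalized reads in DicerAQP2Cre+ replicates 1 to 3, where the highest library lay above 2 of the 3 controls. Its means were 1155 ± 360 and 925 ± 327 (SD, n = 3 each), with a log2 fold change of -0.34 ± 0.31 (SE). In both genotypes replicate 1 was the highest and replicate 3 the lowest, but the replicate numbers are not known to pair the mice. Without DicerAQP2Cre+ replicate 3 the log2 fold change was -0.06, and without control replicate 1 it was -0.11.

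**Figure D1:**
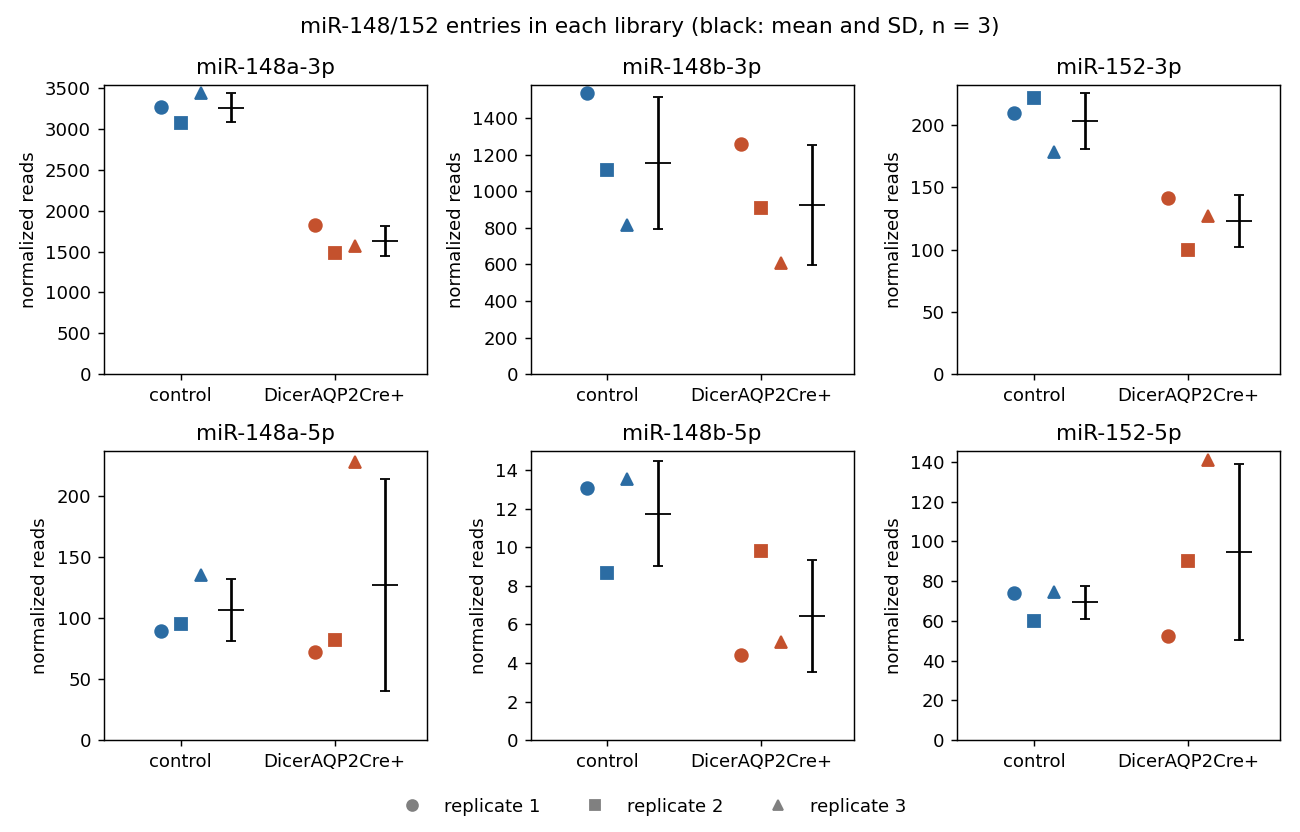
Normalized reads (vertical axes, linear and starting at 0) of each of the 6 entries in control and DicerAQP2Cre+ libraries, with 1 symbol per library and the mean and SD (n = 3) in black. miR-148a-3p and miR-152-3p do not overlap between genotypes, whereas miR-148a-5p and miR-152-5p are highest in DicerAQP2Cre+ replicate 3.

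The 5p strands were less abundant than their 3p partners in controls, and the genotypes overlapped for all 3. In controls miR-148a-5p had 89.2, 95.1 and 135 normalized reads, and DicerAQP2Cre+ replicates 1 to 3 had 72.5, 82.3 and 228. Replicates 1 and 2 of the DicerAQP2Cre+ group thus lay below all controls and replicate 3 above them. The 223 reads behind that last value give a 95% exact Poisson interval of 199 to 259.8 normalized reads, above the interval of each other library. Its log2 fold change was 0.08 ± 0.41 (SE), and -0.43 without DicerAQP2Cre+ replicate 3. It was also below 0 without control replicate 1 (-0.03) and with libraries set to equal totals (-0.13).

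In controls miR-152-5p had 73.8, 59.7 and 74.5 normalized reads, and DicerAQP2Cre+ replicates 1 to 3 had 52.5, 90.1 and 141. Here DicerAQP2Cre+ replicate 1 lay below all controls and the other two above them. The log2 fold change was 0.34 ± 0.35 (SE), and -0.00 without DicerAQP2Cre+ replicate 3.

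miR-148b-5p had the fewest reads of the family, with 11 to 17 reads in each control library and 5 to 6 in each DicerAQP2Cre+ library. These correspond to 13.1, 8.65 and 13.5 normalized reads in controls and 4.44, 9.80 and 5.11 in DicerAQP2Cre+ replicates 1 to 3. The groups overlapped, and the log2 fold change was -0.82 ± 0.44 (SE). The 95% exact Poisson intervals of DicerAQP2Cre+ replicates 1 to 3 ran from 1.63 to 9.66, from 3.18 to 22.9 and from 1.66 to 11.9 normalized reads. That of replicate 2 covers all 3 control values, and those of replicates 1 and 3 lie below the values of control replicates 1 and 3.

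DicerAQP2Cre+ replicate 3, in which miR-148a-5p and miR-152-5p were highest, also stood apart over all tested entries. On the first principal component (46.1% of the variance) its score was -2.33. This lay between the controls (7.10 to 7.90) and DicerAQP2Cre+ replicates 1 and 2 (-7.84 and -12.5). On the second principal component (23.1% of the variance) its score was -12.5, against 0.87 to 5.10 in the other 5 libraries. Library depth ran from 2934851 to 7614853 reads, with 5694159 in this library.

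Of the 6 entries, 1 was called lower in limma and 0 higher, at a Benjamini-Hochberg adjusted p under 0.05 over all 461 tested entries. The entry called was miR-148a-3p. The shares called over all tested entries were 4.99% lower and 3.47% higher. Genotypes did not overlap for 2 of the 6 entries, both lower, and over all tested entries this held for 18.0% lower and 15.6% higher. Because the contrast was known when the entries were chosen, nothing is read from these counts. At the same adjusted threshold edgeR called 1 lower and 0 higher, and DESeq2 called 2 lower, adding miR-152-3p, and 0 higher. At an unadjusted p under 0.05 each of the 3 tools had 2 entries lower and 0 higher. Over all 461 tested entries edgeR called 23 lower and 19 higher, and DESeq2 31 and 29. At the unadjusted threshold limma had 69 lower and 60 higher of the 461, edgeR 54 and 72, and DESeq2 60 and 63. Nothing is read from these counts either. The median log2 fold change was -0.53 over the 6 entries and -0.73 over the 3p strands, against -0.01 over all tested entries.

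The limma call of miR-148a-3p depended on single libraries while its fold change did not. Without DicerAQP2Cre+ replicate 2, control replicate 2 or control replicate 3 it was no longer called, with log2 fold changes of -0.94, -1.05 and -0.97. Without DicerAQP2Cre+ replicate 3 both miR-148a-3p (-0.98) and miR-152-3p (-0.76) were called lower. Setting libraries to equal totals moved the median of all entries to -0.21, with miR-148a-3p then at -1.22 and miR-152-3p at -0.94, both called.

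**Figure D2:**
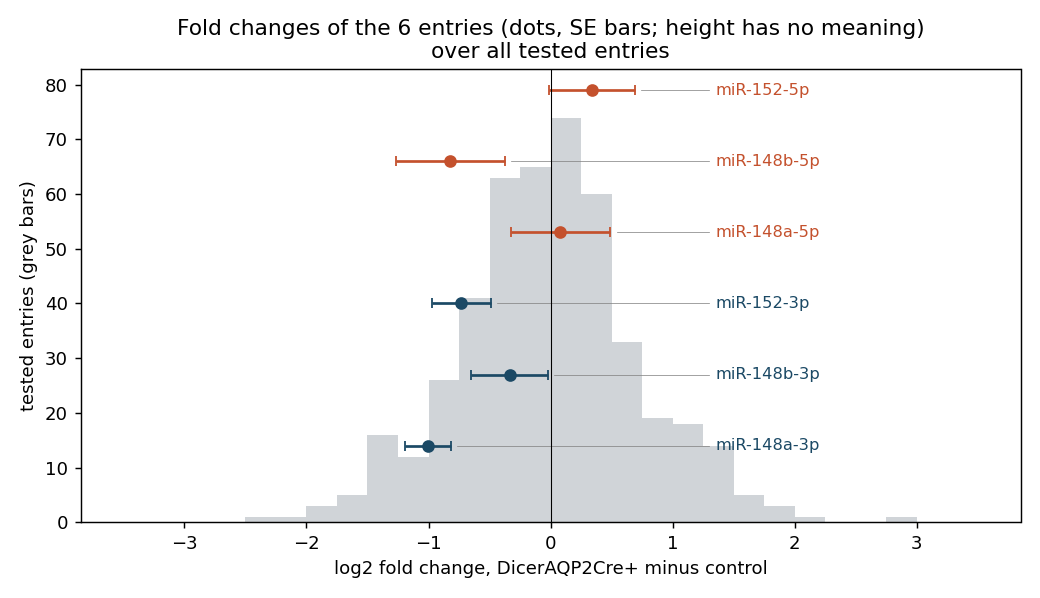
Log2 fold changes (DicerAQP2Cre+ minus control, horizontal axis) of the 3p strands (blue) and 5p strands (red) with SE bars, over a histogram of the 461 tested entries in grey, whose counts are on the vertical axis. The 3 blue points lie below 0, from -1.01 to -0.34, and the red ones spread from -0.82 to 0.34.

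Summed over the shared seed, the family was lower in DicerAQP2Cre+ samples with no overlap between genotypes. The 3p total came to 5012, 4418 and 4436 normalized reads in controls, against 3233, 2495 and 2302 in DicerAQP2Cre+ replicates 1 to 3. The means were 4622 ± 338 and 2676 ± 491 (SD, n = 3 each), 1.73-fold lower, and the log2 difference was -0.80. As a share of all normalized reads the total was 0.0933 ± 0.00278% in controls and 0.0468 ± 0.00938% in DicerAQP2Cre+ samples. The family is thus a small part of the miRNA pool in either genotype.

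The make-up of the 3p total leaned more to miR-148b-3p in DicerAQP2Cre+ samples, with overlap between libraries. miR-148a-3p made up 65.2, 69.8 and 77.6% of the total in the controls, against 56.7, 59.5 and 68.2% in DicerAQP2Cre+ replicates 1 to 3. miR-148b-3p made up 24.8 ± 6.11% in controls and 33.9 ± 6.69% in DicerAQP2Cre+ samples, and miR-152-3p 4.41 ± 0.536% and 4.63 ± 0.781% (SD, n = 3 each). The ratio of miR-148a-3p to miR-148b-3p was 2.13, 2.76 and 4.21 in controls and 1.46, 1.63 and 2.59 in DicerAQP2Cre+ replicates 1 to 3. Its ratio to miR-152-3p was steadier, at 16.3 ± 2.78 and 13.4 ± 1.29. Whether the strands differ in their response to genotype was not tested.

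**Figure D3:**
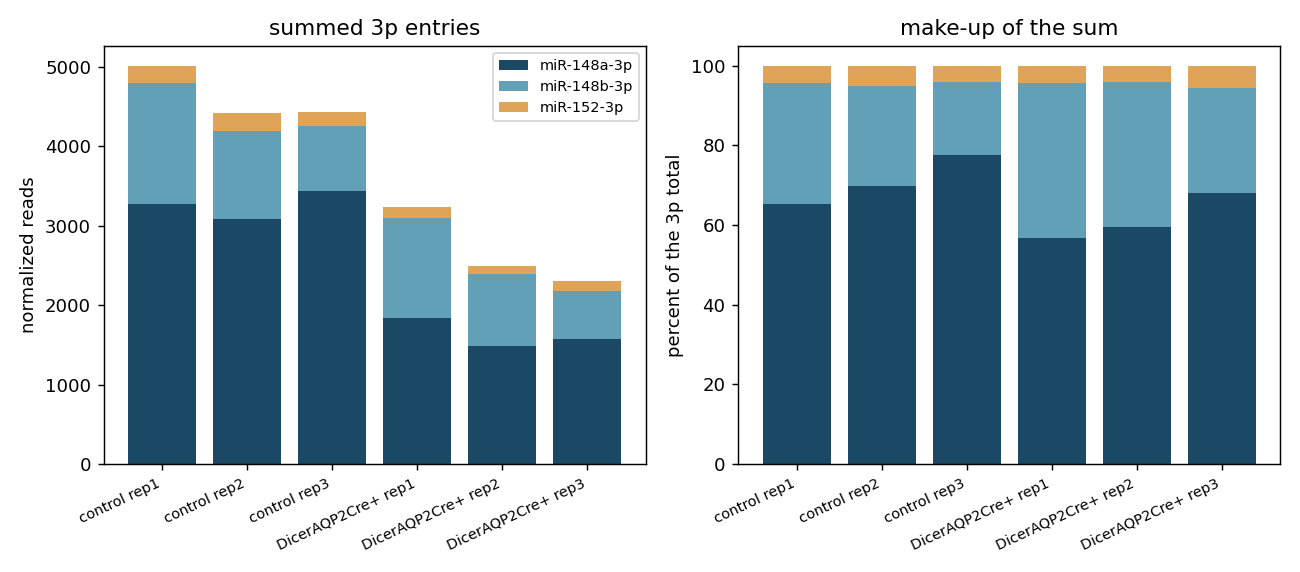
The 3p strands stacked in each of the 6 libraries, as normalized reads (left, axis from 0) and as percent of their sum (right). The sums are 4418 to 5012 in controls and 2302 to 3233 in DicerAQP2Cre+ libraries, with miR-148a-3p the largest part in all 6.

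The balance between arms differed among the 3 hairpins. In controls the 3p strand outnumbered the 5p strand 31.5 ± 5.67 times for miR-148a, 102 ± 36.7 times for miR-148b and 2.98 ± 0.671 times for miR-152 (SD, n = 3). Among 112 hairpins with both arms tested, the 3p strand was the higher in all 3 controls for 48, which include these 3. miR-152 is thus the hairpin of the family whose strands were most alike in level.

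For miR-148a the ratio of 3p to 5p was 36.6, 32.4 and 25.4 in the controls, against 25.3, 18.0 and 6.89 in DicerAQP2Cre+ replicates 1 to 3. The highest DicerAQP2Cre+ library lay just below the lowest control. For miR-152 the ratio was 2.84, 3.71 and 2.39 in controls and 2.69, 1.11 and 0.899 in DicerAQP2Cre+ replicates 1 to 3, so that in replicate 3 the 5p strand was the more abundant one. For miR-148b it was 117, 129 and 60.3 in controls and 284, 92.8 and 119 in DicerAQP2Cre+ libraries, with few 5p reads behind each value.

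On the scale of log2((3p + 1)/(5p + 1)), the DicerAQP2Cre+ mean minus the control mean was -1.09 for miR-148a, -1.07 for miR-152 and 0.48 for miR-148b. The median over the 112 hairpins was -0.07, and 12 hairpins had a difference of -1 or lower, miR-148a and miR-152 among them. Part of this rested on 1 library. Without DicerAQP2Cre+ replicate 3 the differences were -0.55 for miR-148a and -0.76 for miR-152. Within the DicerAQP2Cre+ group, the miR-148a log2 ratio of replicate 3 minus the mean of replicates 1 and 2 was -1.62, the 4th lowest of the 112 hairpins, whereas the median over hairpins was 0.03.

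**Figure D4:**
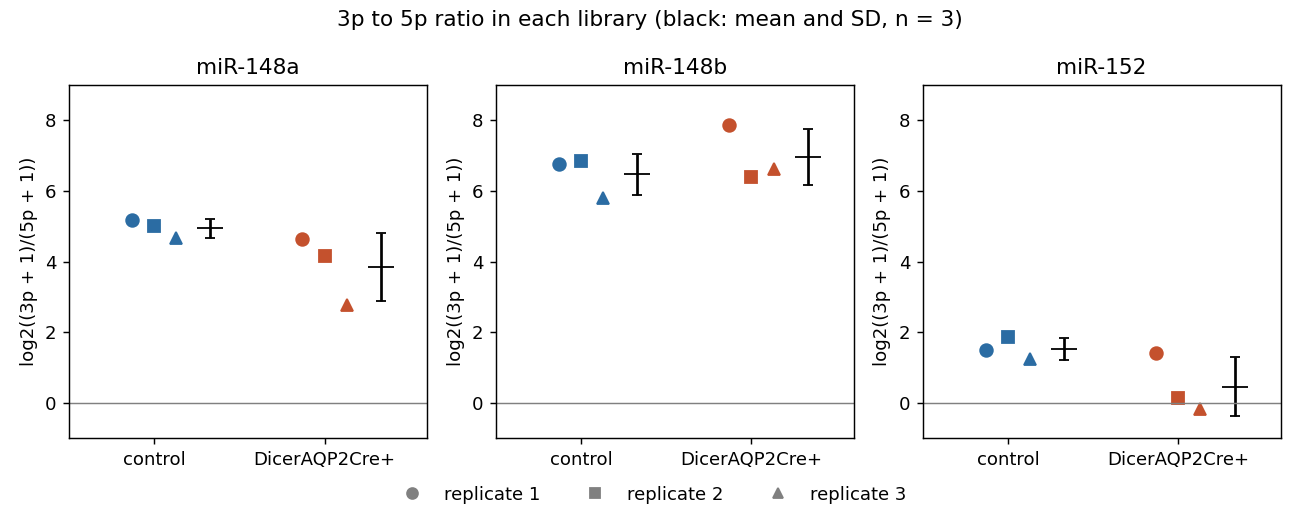
Ratio of 3p to 5p reads on a log2 scale with a pseudocount of 1 (vertical axes) for the 3 hairpins in control and DicerAQP2Cre+ libraries, with 1 symbol per library and the mean and SD (n = 3) in black. The miR-148a and miR-152 ratios are lowest in DicerAQP2Cre+ replicate 3, at 2.78 and -0.15.

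The miR-130/miR-301 family shares most of the seed, shifted by 1 base, and is shown to set its levels beside those of miR-148/miR-152. Capitals mark the 6 bases found at positions 3 to 8 of miR-148a-3p and at positions 2 to 7 of the others.
miR-148a-3p: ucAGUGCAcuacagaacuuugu
miR-130a-3p: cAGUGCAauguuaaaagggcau
miR-301a-3p: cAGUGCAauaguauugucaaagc
miR-130b-3p: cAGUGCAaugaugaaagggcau
Of 4 deposited 3p entries of the miR-130/miR-301 family 3 were tested, and 0 were called lower or higher by limma, edgeR or DESeq2, with 0 at an unadjusted p under 0.05 in each. miR-130a-3p, the most abundant, had 1538 ± 236 normalized reads in control libraries and 1411 ± 666 in those of the DicerAQP2Cre+ group (SD, n = 3 each), with a log2 fold change of -0.21 ± 0.31 (SE). DicerAQP2Cre+ replicates 1 and 2 (902 and 1166) lay below all controls (1269 to 1707), and replicate 3 (2165) above them. miR-301a-3p went from 50.8 ± 18.0 to 28.2 ± 18.7 (-0.98 ± 0.47) and miR-130b-3p from 32.3 ± 8.39 to 43.9 ± 15.2 (0.41 ± 0.34). In controls the miR-148/miR-152 3p total was thus above the summed miR-130/miR-301 entries, which ran from 1369 to 1780 normalized reads.

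The miRNA genes nearest to the 3 loci include those of the Hox clusters. Of entries from the 4 nearest miRNA genes at each locus 8 were tested, and limma, edgeR and DESeq2 each called 0 of them (in limma 1, miR-10a-3p, was lower and 0 higher at an unadjusted p under 0.05). miR-196b-5p, from the HoxA neighbour of Mir148a, had 2251 ± 359 normalized reads in control libraries and 3354 ± 1314 in those of the DicerAQP2Cre+ group (SD, n = 3 each), a log2 fold change of 0.50 ± 0.31 (SE). miR-615-3p, from the HoxC neighbour of Mir148b, had one of 0.51 ± 0.27. miR-10a-5p, from the HoxB neighbour of Mir152, had one of -0.65 ± 0.31, with 244512 in DicerAQP2Cre+ replicate 3 against 98586 and 105203. Its partner miR-10a-3p went from 106 ± 33.6 to 51.0 ± 40.8 (SD, n = 3 each), with a log2 fold change of -1.26 ± 0.47 (SE) and with replicate 3 again the highest of its group, at 98.1; without that library it was called lower (-1.86). The log2 fold changes of the others were 0.09 ± 0.19 for miR-196a-5p, 0.37 ± 0.42 for miR-196b-3p, 0.32 ± 0.48 for miR-615-5p and 0.31 ± 0.44 for miR-8103.

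The entries whose levels followed the family most closely were sought by Pearson correlation of log2(value + 1) over the 6 libraries. These values are descriptive, since the libraries share the genotype difference. For miR-148a-3p the closest were miR-125b-5p (r = 0.999), miR-30c-5p (0.984) and miR-3076-3p (0.982), with log2 fold changes of -0.25, -1.36 and -1.55. For miR-152-3p they were miR-331-5p (0.988), miR-200c-3p (0.986) and miR-30c-1-3p (0.976), and for miR-148b-3p they were miR-340-3p, miR-6516-5p and miR-27a-3p (0.949, 0.949 and 0.928). The 3p total was closest to miR-141-3p (0.994), miR-339-3p (0.970) and miR-125b-5p (0.964). Some of these entries are among the epithelial markers listed below. They are miR-30c-5p for miR-148a-3p, miR-200c-3p with miR-30c-1-3p for miR-152-3p, and miR-141-3p for the 3p total. The others are not, including miR-125b-5p and miR-331-5p, the closest to miR-148a-3p and to miR-152-3p. None of the entries named for miR-148b-3p is an epithelial marker of that list.

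With each genotype's mean taken off, the closest entries were largely others. They were miR-92b-3p, miR-125b-5p and miR-433-3p for miR-148a-3p (0.992, 0.988 and 0.976), and miR-193b-3p, miR-497a-5p and miR-615-3p for miR-148b-3p (0.994, 0.993 and 0.980). For miR-152-3p they were miR-744-3p, miR-337-5p and miR-331-5p (0.983, 0.975 and 0.966). For the 3p total they were miR-141-3p (0.983), miR-7224-3p (0.981) and miR-301a-3p (0.971). Of the entries in this paragraph only miR-141-3p is among the epithelial markers listed below. The closest entries were picked as the highest of all other tested entries over few libraries, so high values can arise by the picking alone. Both kinds of profile use the same libraries, and nothing is read from these correlations.

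The tested entries next above and next below each member in mean level are given beside it. They are few and do not stand for all miRNAs of like abundance. Over all 461 tested entries the log2 fold change was below 0 for 233. Just above and below miR-148a-3p in mean level were the joined entry of miR-199a-3p and miR-199b-3p (log2 fold change 0.71 ± 0.23, SE) and miR-326-3p (0.12 ± 0.19). Around miR-152-3p were miR-673-5p (0.50 ± 0.27) and miR-1306-5p (0.47 ± 0.24), and around miR-148b-3p were miR-3102-3p (0.43 ± 0.24) and miR-342-3p (0.58 ± 0.23). None of these 6 was called. Around miR-148a-5p were miR-98-5p (0.47 ± 0.29) and miR-195a-5p (0.15 ± 0.25), around miR-148b-5p miR-3074-5p (1.04 ± 0.57) and miR-503-5p (0.56 ± 0.71), and around miR-152-5p miR-296-3p (-0.08 ± 0.32) and miR-872-5p (-1.39 ± 0.29), of which the last was called lower.

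Markers of cell types that the tissue could hold were summed in each library. Of 23 tested epithelial entries (miR-200 and miR-30 families, miR-192, miR-194 and miR-204) 13 were called lower and 0 higher by limma. Many of them are strands of the miR-30 family, and both arms of a hairpin count separately, so the entries are not independent. The shares called by limma over all tested entries were 4.99% lower and 3.47% higher. edgeR called 13 epithelial entries lower and DESeq2 14, with 0 higher in each. At an unadjusted p under 0.05 each of the 3 tools had 1 higher. The list sum ran from 326271 to 356479 normalized reads in control libraries and from 128251 to 242895 in DicerAQP2Cre+ ones. The most abundant epithelial entry, miR-30d-5p, went from 205437 ± 20036 to 94036 ± 35444 (SD, n = 3 each), and the called entry with the largest change was miR-30d-3p, with a log2 fold change of -1.48 ± 0.24 (SE). The list sum came mostly from miR-30d-5p and miR-30a-5p. miR-30a-5p went from 78178 ± 15531 to 47497 ± 22232 (SD, n = 3 each), overlapped between genotypes and was not called. The log2 fold change was below 0 for 22 of the 23 entries. The exception, miR-204-5p, went from 346 ± 33.4 to 524 ± 105 without overlap and was not called. The part of the lower epithelial entries in the lower family levels was not tested. Of 7 stromal entries (miR-143, miR-145a, miR-199 and miR-214, without entries under joined names) 2 were called higher, and the list sum was 21406 to 22899 against 25546 to 36776. miR-143-3p, the most abundant, had a log2 fold change of 0.31 ± 0.19, and miR-214-3p, the called entry with the largest change, one of 2.14 ± 0.41. The part of the stromal signal in the family's levels was not tested either.

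The other lists overlapped in their sums. For leukocytes the sum was 13767 to 36950 in controls and 17551 to 40320 in DicerAQP2Cre+ samples, for endothelium (miR-126a) 961 to 1229 and 830.0 to 1245, and for erythroid cells 76.1 to 92.9 and 54.9 to 98.1. Limma called 0 of 8, 0 of 2 and 0 of 2 entries in these lists (at an unadjusted p under 0.05, 1 lower and 1 higher leukocyte entry and 0 in the others), edgeR called 0, and DESeq2 called 1 leukocyte entry lower. That entry, miR-155-5p, was named after its values were seen. It had 468, 551 and 536 normalized reads in controls and 112, 141 and 407 in DicerAQP2Cre+ replicates 1 to 3. Its log2 fold change was -1.47 ± 0.41 (SE) in limma. Limma called it lower without DicerAQP2Cre+ replicate 3 (-2.03), with a pseudocount of 5, without the filter and with equal totals. No other limma setting called it. Of the markers that define leukocytes, miR-142a-3p was at 0 in all 3 controls and at most 0.740 in a DicerAQP2Cre+ library, and miR-223-3p had means of 4.33 and 12.2 normalized reads, so the leukocyte sum came mostly from miR-150-5p. The most abundant were miR-150-5p (0.34 ± 0.42), miR-126a-3p (-0.15 ± 0.26) and miR-486a-3p (-0.02 ± 0.30, log2 fold changes with SE). miR-122-5p, the defining miRNA of hepatocytes, was below the filter, at 3.85 to 4.72 normalized reads in control libraries and 1.48 to 7.84 in DicerAQP2Cre+ ones. This marker of hepatocytes, in which miR-148a is abundant, thus had few reads in any library.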

How the data were processed

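Small RNA was sequenced from 3 control and 3 DicerAQP2Cre+ inner medullas; per the labels' protocols, RNA came from the RNeasy Micro Kit and libraries from the TruSeq small-RNA protocol. FastQC 0.11.3, DESeq2 and the build mm9 are listed in the submitters' processing notes; aligner, counting tool and miRNA annotation were not given in the sources used here. The deposited signal values are read counts divided by 1 size factor per library: 100% of values were whole multiples of a column's smallest value within 0.01 read, so the reads could be recovered (2934851 to 7614853 per library). A library with 0 reads of an entry allows up to 3 reads.

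Limma 3.58.1 (R 4.3.3) was fitted to log2(value + 1) of the 461 entries with a mean of at least 5, with a mean-variance trend, no replicate block, and two-sided Benjamini-Hochberg adjustment over all of them. edgeR 4.0.16 and DESeq2 1.42.0 were run on the recovered reads. The fits were also run on simulated data with larger changes than those of the family, which cannot show how well changes of the family's size are called. The members and lists were chosen with earlier results of these data known. Named miRNAs are the members, the shifted-seed family, the 3 closest entries by correlation for each profile, the neighbours in level, tested entries of the 4 nearest miRNA genes per locus, and from each marker list the most abundant entry and the called entry with the largest change. The marker entries miR-30a-5p, miR-204-5p, miR-155-5p, miR-142a-3p and miR-223-3p were named beyond this rule, with their values seen.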

Additional observations from a re-analysis of the deposited data

How the results depend on the processing

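The log2 difference of the 3p total was -1.01 with equal totals and ran from -0.94 to -0.70 when single libraries were left out. The number of family entries called lower was 2 with equal totals and by DESeq2, 0 in limma without a trend (3 at an unadjusted p under 0.05), and 0 to 2 with a library left out; 0 were called higher in any of these (at most 1 at an unadjusted p under 0.05). Over all tested entries, lower calls numbered 48 with equal totals and 11 without a trend, and higher calls 7 without a trend and 29 by DESeq2; leaving out a library gave 0 to 62 lower and 0 to 43 higher. Higher entries were 16 of 39 calls and 14 of 62 with equal totals. The zeros were without control replicate 2 (43 lower and 40 higher at an unadjusted p under 0.05) and without control replicate 3 (47 and 45), in limma alone, since no other tool was run there. Single-library omissions moved the miR-148a share of the 3p total between -12.7 and -6.01 percentage points, the miR-148b share between 5.98 and 12.9, the miR-152 share between -0.22 and 0.53, and the log2 arm ratio between -1.48 and -0.55 (miR-148a), 0.04 and 0.77 (miR-148b) and -1.54 and -0.76 (miR-152). Filters and the trend do not enter the 3p total. With the replicate number as a block, limma called 18 entries lower and 14 higher, 1 of them a family member; same-numbered libraries deviated from their group means with correlations of -0.06, 0.01 and 0.06, so the numbers are not taken to pair the mice. Among the family, miR-148b-5p rests on the fewest reads. The cause of these changes was not tested.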
